A study of Mus musculus with 28 samples.

Results

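Cholesterol is made from acetyl-CoA by a long chain of enzymes, and 9 genes of this chain were followed here in mouse cerebral cortex: Hmgcs1, Mvd, Idi1, Fdps, Fdft1, Sqle, Lss, Cyp51 and Dhcr7. They were chosen by name as enzymes of the pathway, with earlier results of these data known. All 9 were found among the 53342 gene identifiers of each deposited table. In whole cortex at P24, none of the 9 differed between cKO and Ctrl mice past an adjusted p of 0.05, although each log2 fold change was above 0, and Cyp51 passed in some other fits of the same libraries. Without a single cKO mouse, left out after its values were seen, 6 of the 9 were higher in cKO. In that fit 2.85% of all genes tested were called higher. Ribosome-bound RNA of Cre-expressing cells held more of 8 of the 9 transcripts than the whole extract in Ctrl mice. It held 7.63-fold more Idi1, and 35.3% of all genes tested were called higher there.

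In the early part of the pathway HMG-CoA synthase (Hmgcs1) forms HMG-CoA, from which mevalonate is made. Mevalonate diphosphate decarboxylase (Mvd), isopentenyl diphosphate isomerase (Idi1) and farnesyl diphosphate synthase (Fdps) then build farnesyl diphosphate. Squalene synthase (Fdft1), squalene epoxidase (Sqle) and lanosterol synthase (Lss) make lanosterol, which Cyp51, Dhcr7 and other enzymes convert into cholesterol. The transcription factor SREBP-2 (Srebf2) turns these genes on together when membranes are poor in sterol, and Insig1 holds it back. The brain makes nearly all of its own cholesterol, since lipoproteins of the blood hardly pass the blood-brain barrier, and astrocytes and myelinating oligodendrocytes are its main sources.

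The mice were on a C57BL/6J background, and each library came from the cortex of 1 mouse. In cKO mice a gene was flanked by loxP sites on both alleles, and the driver mGFAP-Cre expressed Cre recombinase from a Gfap promoter. The Ctrl mice were sex-matched littermates with loxP/loxP or loxP/+ alleles, and are described without the driver. Bulk RNA-Seq covered 4 cKO and 4 Ctrl mice at P24, before the onset of paralysis in this line, and 4 and 4 at P17. TRAP-Seq (translating ribosome affinity purification) used 3 cKO and 3 Ctrl mice at P24 that also carried a Cre-dependent EGFP/Rpl10a fusion, which tags ribosomes. Each of these mice gave an IP library, from ribosomes pulled down through the tag, and an Input library from the same extract. The tag marks every cell that has expressed Cre, and the Ctrl mice of the TRAP-Seq set must therefore carry the driver too. By the definition above, loxP/loxP alleles with the driver make a cKO mouse. The Ctrl mice of bulk and TRAP-Seq may therefore differ in genotype, which the sources used here do not resolve.

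The promoters of Hmgcs1, Mvd and Lss are shown because Hmgcs1 was the most abundant member per length, Mvd was among the members most enriched in IP, and Lss was the member with the smallest change at P24. The stretches are the 250 bases before the transcription start of RefSeq on GRCm38.p6, at chr13:119690101-119690350 on the plus strand for Hmgcs1, chr8:122443423-122443672 on the minus strand for Mvd and chr10:76531355-76531604 on the plus strand for Lss. Capitals mark CCAAT, the box bound by NF-Y, or its reverse complement ATTGG, and in Hmgcs1 also TCACNCCAC, a form of the sterol regulatory element that SREBP-2 binds.
Hmgcs1: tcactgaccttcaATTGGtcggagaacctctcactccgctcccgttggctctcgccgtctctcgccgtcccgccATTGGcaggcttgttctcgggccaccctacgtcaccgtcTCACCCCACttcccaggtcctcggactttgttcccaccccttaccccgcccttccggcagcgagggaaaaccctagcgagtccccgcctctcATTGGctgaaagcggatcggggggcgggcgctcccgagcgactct
Mvd: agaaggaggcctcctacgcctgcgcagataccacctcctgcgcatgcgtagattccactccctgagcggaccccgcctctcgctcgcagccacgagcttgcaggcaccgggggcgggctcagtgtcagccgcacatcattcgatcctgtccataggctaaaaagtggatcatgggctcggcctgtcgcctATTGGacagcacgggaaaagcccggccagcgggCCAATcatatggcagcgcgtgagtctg
Lss: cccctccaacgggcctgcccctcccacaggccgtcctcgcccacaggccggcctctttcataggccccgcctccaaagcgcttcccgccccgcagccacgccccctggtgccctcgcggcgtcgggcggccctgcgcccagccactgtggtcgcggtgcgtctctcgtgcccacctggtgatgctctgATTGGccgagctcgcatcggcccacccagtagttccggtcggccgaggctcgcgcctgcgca
Of the 9 genes, 6 had an entry in the promoter table, with 8 windows in all, 3 of them for Dhcr7. Promoters of Fdps, Fdft1 and Sqle are not shown. Searched on both strands, CCAAT was in 6 of the 8 windows (75%), against 33.8% of all 32851 windows of the same length. GGGCGG, the box of Sp1, was in 7 of 8 (87.5%), against 32.7% of all windows. TCACNCCAC was in 1 of 8, that of Hmgcs1 at position -137 from the start, and in 1.05% of all windows. These are matches of letters and do not show binding.

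The libraries held 8.86 to 14.6 M reads assigned to genes in bulk and 18.4 to 27.2 M reads in TRAP-Seq. Among P24 bulk libraries, cKO replicate 1 stood apart. Its root mean square log2 difference from the mean of the others in its group, over genes with a mean of at least 1 CPM (count per M reads, scaled between libraries by TMM), was 0.30, against 0.21 to 0.23 for the 7 other P24 libraries. Among Input libraries, cKO replicate 1 stood apart with 0.57, against 0.20 to 0.35 for the other 5. For the 9 genes, the genotype comparisons in P24 bulk and in Input are given with and without the library concerned. Other results that include either library, such as the interaction of fraction and genotype, are not always given without it. The ranking of genes by likeness is given only with these libraries. Neuronal markers summed to 4363 to 4922 CPM over 6 genes in the bulk libraries of cortex.

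Per length, Hmgcs1 was the most abundant of the 9 genes in every group. In P24 bulk Ctrl its mean was 41.5 ± 2.21 RPKM (CPM divided by exonic length in kilobases; SD, n = 4). It was followed by Fdft1 with 15.2 ± 0.82 RPKM and Cyp51 with 10.99 ± 0.76 RPKM. Mvd with 7.97 ± 0.50, Sqle with 7.84 ± 0.28, Idi1 with 7.22 ± 0.69 and Dhcr7 with 6.73 ± 0.41 RPKM lay close together, and each of these neighbours overlapped the next within 1 SD. Fdps with 4.85 ± 0.50 RPKM and Lss with 3.37 ± 0.15 RPKM were the least abundant. Lss was the lowest in every group, over an exonic length of 10787 bases that joins all its annotated transcripts. Group means of Hmgcs1 ran from 41.5 to 52.5 RPKM in bulk, were 58.8 and 61.0 RPKM in Input and reached 176 RPKM in IP of cKO mice. In IP libraries of Ctrl mice the order differed. Hmgcs1 stood at 147 ± 14.1 RPKM and Idi1 came next with 89.9 ± 12.2 RPKM (SD, n = 3). Mvd with 37.5 ± 8.99 RPKM and Fdft1 with 35.9 ± 5.03 RPKM overlapped, while Lss with 3.64 ± 0.29 RPKM and Dhcr7 with 4.00 ± 1.11 RPKM were the lowest and overlapped each other.

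The first comparison asked whether the whole cortex of P24 cKO mice, before paralysis, differed from Ctrl in cholesterol synthesis transcripts. With all 8 libraries, 0 of the 9 genes passed the edgeR quasi-likelihood test at an adjusted p of 0.05, in a comparison that called 1.72% of 22495 genes. At an unadjusted p under 0.05 there were 2, Cyp51 and Dhcr7, and DESeq2 called 1, Cyp51. All 9 log2 fold changes lay above 0, from 0.02 to 0.42 with a median of 0.16, against a median of 0.00 over all genes tested. The cKO and Ctrl mice overlapped for all 9, whereas they were separate for 7.67% of genes tested.

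Hmgcs1, at the head of the pathway, had 177, 190.4, 201 and 194 CPM in the 4 Ctrl mice. The cKO mice had 147, 251, 236 and 230 CPM (log2 fold change 0.18 ± 0.13 SE, adjusted p = 0.62, edgeR). One cKO mouse, replicate 1, was thus the lowest of all 8, and the other 3 were above every Ctrl mouse. Idi1, which interconverts the isoprene units, had 24.5, 23.7, 28.9 and 24.05 CPM in Ctrl mice. Its cKO mice had 18.9, 32.8, 32.3 and 31.2 CPM (log2 fold change 0.19 ± 0.15, adjusted p = 0.65). Sqle, a rate-limiting step of the later pathway, had 43.0, 44.8, 44.7 and 41.5 CPM in Ctrl mice. Its cKO mice had 32.8, 53.2, 53.8 and 52.6 CPM (log2 fold change 0.14 ± 0.13, adjusted p = 0.70). Both genes repeated the split seen for Hmgcs1, with replicate 1 below all Ctrl mice and the other 3 cKO mice above them.

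Cyp51, the lanosterol demethylase, came nearest to the threshold. The Ctrl mice had 43.8, 48.6, 50.0 and 51.7 CPM. The cKO mice had 49.9, 69.5, 74.9 and 66.3 CPM (log2 fold change 0.42 ± 0.11, adjusted p = 0.078). With the same 8 libraries it passed with the replicate block (0.41, adjusted p = 0.015), with no filter (0.42, adjusted p = 0.011) and in DESeq2 (0.42, adjusted p = 0.0055). For this gene, replicate 1 lay inside the Ctrl range. Dhcr7, which catalyses the last reduction in one branch of the pathway, had 36.3 to 42.0 CPM in Ctrl mice and 36.7, 55.6, 50.2 and 44.1 CPM in cKO mice (log2 fold change 0.25 ± 0.11, adjusted p = 0.34). Lss was the flattest, with 34.6 to 38.4 CPM in Ctrl and 32.3 to 40.4 CPM in cKO mice (log2 fold change 0.02 ± 0.07). Mvd, Fdps and Fdft1 had log2 fold changes of 0.16 ± 0.15, 0.11 ± 0.12 and 0.16 ± 0.08.

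**Figure D1:**
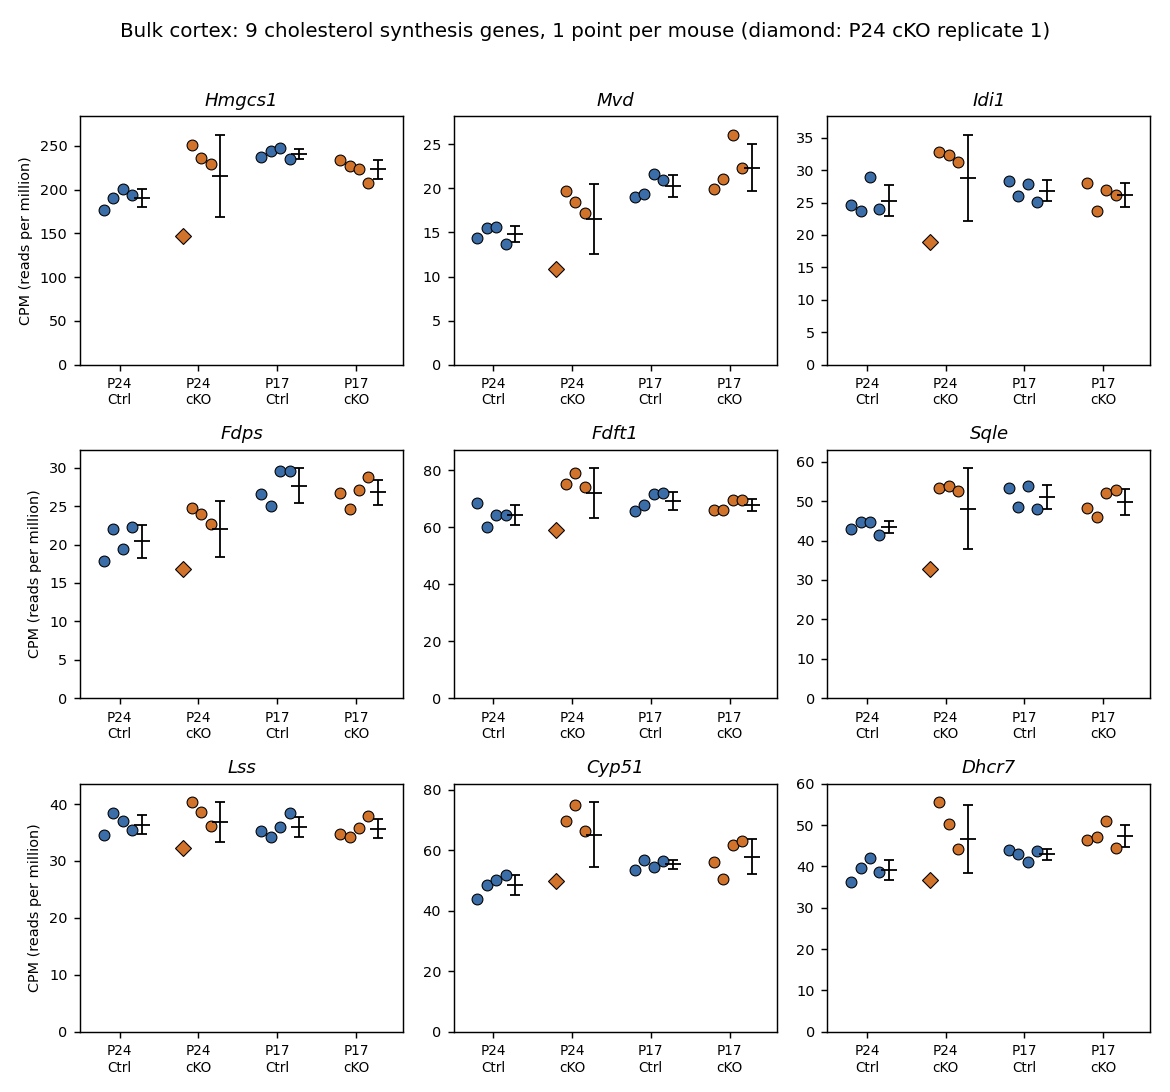
Bulk cortex, 1 panel per gene. The y axis is CPM (scaled by TMM), points are mice (blue Ctrl, orange cKO, diamond for P24 cKO replicate 1), and bars give mean ± SD of 4 mice. At P24 the diamond lies below or at the bottom of the Ctrl mice for most genes while the other 3 cKO mice lie higher, as for Hmgcs1 at 147 against 230 to 251 CPM; at P17 both genotypes lie at similar levels.

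Without cKO replicate 1, 6 of the 9 genes were higher in cKO, in a comparison that called 2.85% of 22820 genes higher. These were Cyp51 (log2 fold change 0.53 ± 0.06 SE, adjusted p = 0.00025), Sqle (0.29 ± 0.05, adjusted p = 0.0041), Hmgcs1 (0.33 ± 0.06, adjusted p = 0.0069), Idi1 (0.34 ± 0.07, adjusted p = 0.021), Fdft1 (0.24 ± 0.05, adjusted p = 0.021) and Dhcr7 (0.35 ± 0.08, adjusted p = 0.021). Mvd (0.32 ± 0.08, adjusted p = 0.053), Fdps (0.22 ± 0.09, adjusted p = 0.19) and Lss (0.08 ± 0.06, adjusted p = 0.56) did not pass. The median over the 9 genes was then 0.32, against 0.00 over all genes tested. This library was singled out after its values were seen.

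The split by mouse can be counted. Replicate 1 was the lowest of the 8 P24 mice for 7 of the 9 genes, all but Cyp51 and Dhcr7, and for 13.5% of genes tested. The other 3 cKO mice all exceeded the 4 Ctrl mice for 8 of the 9, all but Lss, and for 9.01% of genes tested. Both patterns were defined after the values of these genes were seen, so the counts are a description and not a test. The 9 genes also varied together across these mice (median Pearson r 0.87), so they are not 9 separate observations. As a percent of the Ctrl mean, replicate 1 ranged from 73.0 to 103 over the 9 genes with a median of 82.3. The medians of replicates 2, 3 and 4 were 130, 124 and 116.

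**Figure D2:**
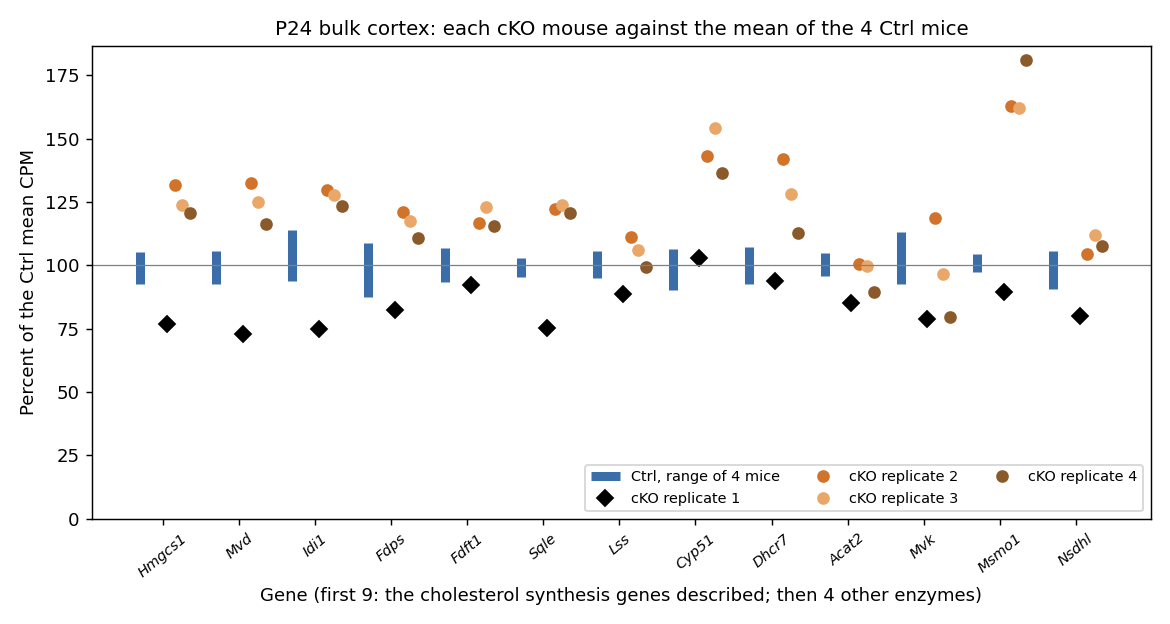
Each P24 cKO mouse as a percent of the mean CPM of the 4 Ctrl mice (y axis), for the 9 genes and 4 other synthesis enzymes (x axis). The 4 are Acat2, Mvk, Msmo1 and Nsdhl, all among the 5 of 10 other enzymes with cKO replicate 1 lowest of the 8 mice. The rest of the 10 are not shown, so the figure does not stand for the whole pathway. Blue bars give the range of the Ctrl mice, the black diamond is cKO replicate 1 and circles are the other 3 cKO mice. Over the 9 genes the diamond has a median of 82.3 percent and the circles have medians of 116 to 130 percent by mouse.

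The same mouse also differed in genes of reactive glia and phagocytes, named after their values were seen. Gfap, the intermediate filament of astrocytes, stood at 630 CPM in replicate 1, at 776 to 951 CPM in the other cKO mice and at 124 to 152 CPM in Ctrl mice. Vim stood at 81.2 CPM, against 259 to 445 and 24.6 to 34.6 CPM. Lgals3, a lectin of activated phagocytes and glia, stood at 2.55 CPM, against 19.7 to 28.2 and 0.22 to 0.66 CPM. In these 3 genes the mouse lay between the Ctrl and the other cKO mice, whereas in 7 of the 9 synthesis genes it lay below both. The summed oligodendrocyte markers of replicate 1, 4347 CPM, were below the 4386 to 5169 CPM of the other cKO mice and within the 3720 to 4916 CPM of Ctrl mice. Its astrocyte markers summed to 4162 CPM, against 4007 to 4132 and 3682 to 4321 CPM, and its neuronal markers to 4729 CPM, against 4374 to 4645 and 4701 to 4922 CPM. For the other 3 cell types the sum of replicate 1 was the lowest of the 8 mice, as for 7 of the 9 synthesis genes. Its microglial markers summed to 258 CPM, against 283 to 316 and 265 to 294 CPM. Endothelial markers summed to 97.6 CPM, against 107 to 117 and 108 to 118 CPM, and markers of oligodendrocyte precursors to 176 CPM, against 197 to 211 and 188 to 218 CPM. The part of these differences in the result was not tested. In bulk libraries, fewer cells of a type and less RNA per cell cannot be told apart.

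Of 10 other enzymes of the pathway, 0 passed at P24 with all libraries (2 had an unadjusted p under 0.05), and 2 passed without replicate 1. Of all genes tested, 1.26% were called higher with all libraries and 2.85% without replicate 1. Msmo1, a sterol methyl oxidase that acts after Cyp51, was then higher in cKO by 0.76 ± 0.06 on the log2 scale (adjusted p = 4.6e-06). Hsd17b7, a ketosteroid reductase of the same stretch, was higher by 0.35 ± 0.08 (adjusted p = 0.033). The median of the 10 with all libraries was 0.01. Of 7 genes of sterol sensing none passed in either fit (2 had an unadjusted p under 0.05 with all libraries), with Srebf2 at -0.17 ± 0.06 (adjusted p = 0.27) and Insig1 at 0.15 ± 0.11 (adjusted p = 0.64). Of 7 uptake and transport genes, Npc2, which carries cholesterol out of lysosomes, was higher (0.43 ± 0.06, adjusted p = 0.0022) and none was lower.

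Fatty acid synthesis, which the related factor SREBP-1 governs, had 4 of 9 genes higher in cKO with all P24 libraries and none lower. In that comparison 1.26% of genes tested were called higher. They were Scd1 (log2 fold change 0.50 ± 0.09, adjusted p = 0.016) and Scd2 (0.29 ± 0.06, adjusted p = 0.043), both desaturases, Acss2, which makes acetyl-CoA from acetate (0.35 ± 0.06, adjusted p = 0.016), and Fads1, another desaturase (0.30 ± 0.04, adjusted p = 0.0037). The median of the 9 was 0.14, and the same 4 passed without replicate 1. No gene passed among 8 of the isoprenoid branches, none of which had an unadjusted p under 0.05, and 6 tested of 7 of sterol turnover, of which 1 had.

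At P17, 0 of the 9 genes passed, in a comparison that called 0.0943% of 21201 genes. At an unadjusted p under 0.05 there was 1, Dhcr7, and DESeq2 called 0. The log2 fold changes ran from -0.11 to 0.15 with a median of -0.03, against 0.00 over all genes. Hmgcs1 had 237, 244, 248 and 235 CPM in Ctrl mice and 234, 227, 223 and 208 CPM in cKO mice (log2 fold change -0.11 ± 0.05). Dhcr7 had 44.0, 42.9, 41.0 and 43.7 CPM in Ctrl mice and 46.5, 47.2, 51.0 and 44.5 CPM in cKO mice (log2 fold change 0.14 ± 0.06). These 2 genes were the only ones of the 9 whose groups did not overlap, with cKO below Ctrl for Hmgcs1 and above it for Dhcr7, and 2.83% of genes tested were separate. Both had an adjusted p of 1.00. Cyp51 had 53.4 to 56.8 CPM in Ctrl and 50.5 to 63.0 CPM in cKO mice. Same-numbered libraries shared deviations in the check described under processing, and with the replicate block 0 of the 9 passed as well.

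Whether the genotype difference changed between P17 and P24 was tested as an interaction, which cannot tell age from the table it came in. With all libraries 0 of the 9 passed, against 0.047% of 23395 genes. At an unadjusted p under 0.05 there was 1, Cyp51, and DESeq2 called 0. All 9 values lay above 0, from 0.01 to 0.36 with a median of 0.18. Without P24 cKO replicate 1, the interaction passed for Hmgcs1 alone, at 0.44 (adjusted p = 0.0055).

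The second experiment asked which transcripts were bound to tagged ribosomes. In Ctrl mice, 8 of the 9 genes were higher in IP than in Input, and Dhcr7 did not pass. In this comparison 35.3% of 24385 genes were called higher. Idi1 led with 327, 351 and 268 CPM in IP and 41.4, 35.7 and 45.9 CPM in Input (log2 fold change 2.93 ± 0.13, adjusted p = 4.1e-09). Every IP library thus lay far above every Input library. Mvd followed with 69.5, 86.6 and 53.2 against 28.7, 31.1 and 21.5 CPM (1.35 ± 0.18, adjusted p = 3.4e-05). Hmgcs1 had 667, 744 and 615 against 258, 258 and 294 CPM (1.31 ± 0.10, adjusted p = 2.9e-07).

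Of the other 6 genes 5 passed. Cyp51 had a log2 fold change of 0.88 ± 0.15, Fdft1 of 0.77 ± 0.12, Fdps of 0.77 ± 0.14, Sqle of 0.58 ± 0.12 and Lss of 0.52 ± 0.11, with adjusted p-values of 0.0015 or below. Dhcr7 had 17.7, 30.3 and 21.8 CPM in IP and 18.0, 22.5 and 15.6 CPM in Input (0.30 ± 0.19, adjusted p = 0.18), and it passed without IP Ctrl replicate 1 (0.53, adjusted p = 0.022). It also passed in 1 of 7 alternative fits that left out no library. The IP and Input libraries were separate for the 8 genes that passed and overlapped for Dhcr7, and 37.1% of genes tested were separate with IP above Input. In cKO mice 7 of the 9 were higher in IP, where 27.8% of 24011 genes were, and those missing were Lss (0.45 ± 0.20, adjusted p = 0.080) and Dhcr7 (0.65 ± 0.26, adjusted p = 0.061). Again 7 genes were separate, Lss among them and Fdps not, against 32.1% of genes tested. Fdps (0.63 ± 0.22, adjusted p = 0.038) no longer passed when any of 5 of the 6 libraries was left out, Input cKO replicate 1 being the exception, and with the mouse as a block 8 of the 9 passed, Dhcr7 included (0.64, adjusted p = 0.019). Lss passed without Input cKO replicate 2 (0.61, adjusted p = 0.041), and Dhcr7 passed without that library (0.82, adjusted p = 0.042) and without IP cKO replicate 1 (0.88, adjusted p = 0.025). Over 7 alternative fits that left out no library, the mouse block included, Dhcr7 passed in 5 and Lss in 1. The count of the 9 genes that passed in them ran from 7 to 9.

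**Figure D3:**
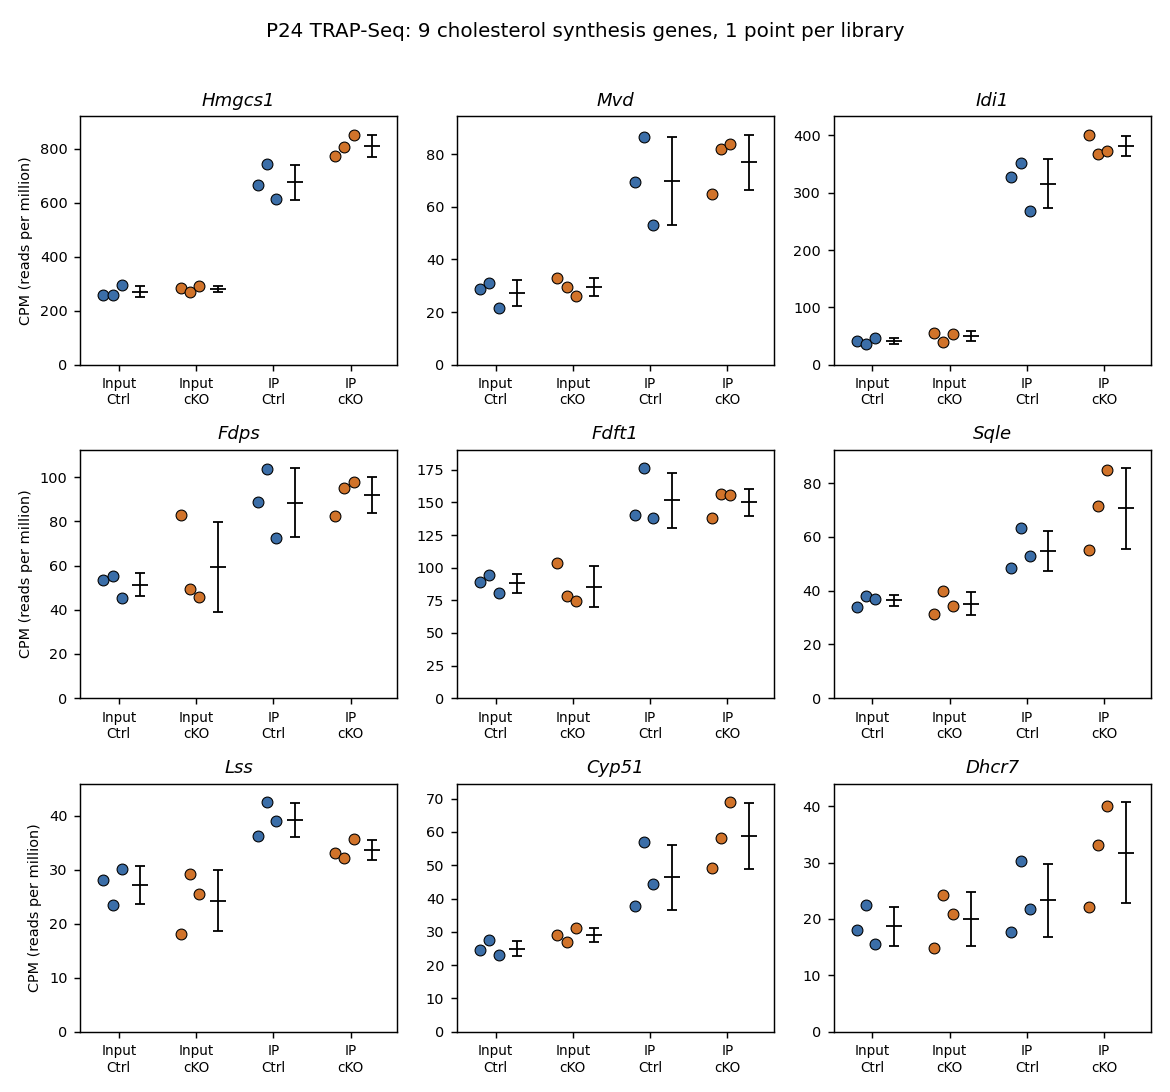
TRAP-Seq libraries at P24, 1 panel per gene. The y axis is CPM, points are libraries (blue Ctrl, orange cKO; Input left, IP right) and bars give mean ± SD of 3 libraries. Idi1 rises from 35.7 to 55.7 CPM in Input to 268 to 401 CPM in IP, whereas for Dhcr7 the fractions overlap.

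The cell types behind each fraction were read from marker genes. The 7 astrocyte markers summed to 9800 to 12903 CPM in IP and 930 to 1931 CPM in Input, and all 7 were higher in IP in both genotypes. Neuronal markers were at 2094 to 2562 CPM in IP and 4192 to 4780 CPM in Input. Oligodendrocyte markers, of the other main cholesterol-making cell, were at 1469 to 2324 CPM in IP and 2692 to 2924 CPM in Input, with 5 of 6 lower in IP in each genotype. Microglial markers were at 80.4 to 98.8 CPM in IP and 161 to 183 CPM in Input, endothelial markers at 1.96 to 3.26 and 5.94 to 8.00 CPM, and markers of oligodendrocyte precursors at 162 to 251 and 174 to 223 CPM. RNA of these cells was thus still present in IP, and its part in the results was not tested.

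Other enzymes of the pathway differed between fractions in both directions in Ctrl mice, where 35.3% of genes were called higher in IP and 35.7% lower. There 6 of the 10 were higher in IP, led by Msmo1 (log2 fold change 2.47 ± 0.17, adjusted p = 1.3e-07) and Nsdhl (1.54 ± 0.16, adjusted p = 3.4e-06), and 2 were lower. Those lower were Lbr, a sterol reductase that is also a receptor of the nuclear lamina (-0.75 ± 0.18, adjusted p = 0.0030), and Ebp, a sterol isomerase (-0.43 ± 0.16, adjusted p = 0.027). Insig1 was higher in IP (1.38 ± 0.11, adjusted p = 4.4e-07) and Srebf2 lower (-0.66 ± 0.16, adjusted p = 0.0026). In cKO mice 6 of the 10 were higher in IP, with Hsd17b7 among them and Mvk not, and 0 were lower. In that comparison 27.8% of genes tested were called higher and 28.5% lower. Insig1 was higher there too (1.97 ± 0.17, adjusted p = 3.7e-05), whereas Srebf2 did not pass (-0.49 ± 0.22, adjusted p = 0.085), except without Input cKO replicate 1 (-0.65, adjusted p = 0.0030). The interaction of fraction and genotype passed for 0 of these 10 enzymes in edgeR, none of which had an unadjusted p under 0.05, and Srebf2 had 0.17 ± 0.28 (adjusted p = 0.94).

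Between genotypes, 0 of the 9 genes passed in IP libraries, in a comparison that called 20% of 23864 genes. At an unadjusted p under 0.05 there were 3, Hmgcs1, Idi1 and Sqle, and DESeq2 called 1, Hmgcs1. Log2 fold changes lay above 0 for 7, and the median was 0.27, against -0.01 over all genes. Scaled by library size alone, the median of all genes was -0.13 and that of the 9 was 0.16, and 36.2% of called genes were higher in place of 58.0%. Same-numbered IP libraries shared deviations in the check described under processing, but not every pair of Input libraries from the same mice did. The check therefore did not establish that the numbers pair mice. With the replicate block, an alternative fit, 5 of the 9 were higher in cKO, where 15% of genes were called higher. These were Dhcr7 (0.45 ± 0.13, adjusted p = 0.030), Sqle (0.36 ± 0.11, adjusted p = 0.032), Idi1 (0.29 ± 0.09, adjusted p = 0.039), Cyp51 (0.35 ± 0.11, adjusted p = 0.040) and Hmgcs1 (0.27 ± 0.09, adjusted p = 0.040). All 5 were also among the 6 that passed in P24 bulk without cKO replicate 1, where different mice were measured. Both are alternative fits, the bulk one chosen after its values were seen, and the main fits called 0 of the 9. The share of all genes that passed in both was not counted, so the overlap has no background.

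Hmgcs1 had 667, 744 and 615 CPM in Ctrl IP and 771, 806 and 851 CPM in cKO IP (0.27 ± 0.10, adjusted p = 0.088 without the block). Idi1 had 327, 351 and 268 CPM in Ctrl IP and 401, 368 and 373 CPM in cKO IP (0.28 ± 0.11, adjusted p = 0.10). In both genes every cKO library lay above every Ctrl library. Lss went the other way, with 36.3, 42.6 and 39.0 CPM in Ctrl IP and 33.1, 32.2 and 35.8 CPM in cKO IP (-0.21 ± 0.10, adjusted p = 0.17), and its groups did not overlap either. Thus 3 of the 9 were separate, against 37.7% of genes tested. Sqle (0.37 ± 0.16), Cyp51 (0.35 ± 0.16) and Dhcr7 (0.46 ± 0.22) overlapped. For Dhcr7, the Ctrl libraries had 17.7, 30.3 and 21.8 CPM and the cKO libraries 22.2, 33.1 and 40.01 CPM. Fdft1, with 138 to 176 CPM in Ctrl IP and 138 to 156 CPM in cKO IP, had a log2 fold change of -0.01 ± 0.12. Without IP cKO replicate 1, 2 of the 9 passed, Sqle (0.55, adjusted p = 0.017) and Dhcr7 (0.69, adjusted p = 0.034).

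**Figure D4:**
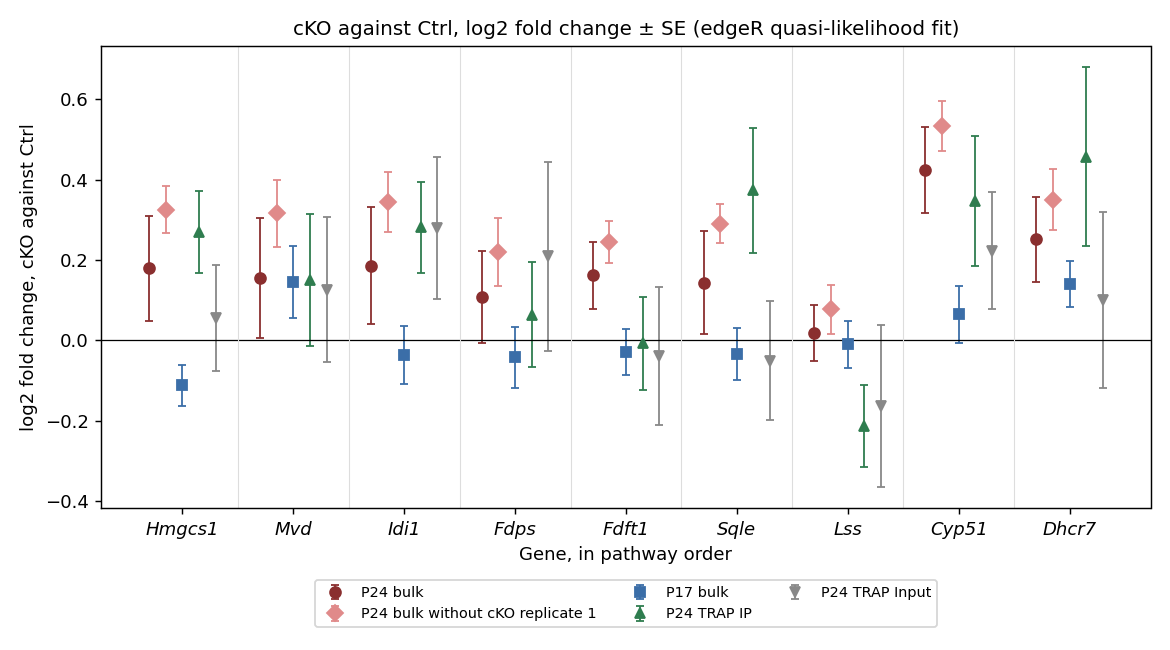
Log2 fold change of cKO against Ctrl ± SE (y axis) for the 9 genes in pathway order (x axis), in P24 bulk with all libraries and without cKO replicate 1, P17 bulk, P24 TRAP IP and P24 TRAP Input. Cyp51 is the highest of the P24 bulk values at 0.42, or 0.53 without replicate 1, while the P17 values lie between -0.11 and 0.15 and Lss in IP lies at -0.21.

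In IP, other enzymes of the pathway that were higher in cKO were Ebp (0.64 ± 0.17, adjusted p = 0.021) and Hsd17b7 (0.45 ± 0.12, adjusted p = 0.023), 2 of 10, with none lower. Of all genes tested in this comparison, 11.6% were called higher and 8.42% lower, and the list counts below stand against these shares. Insig1 was higher (0.51 ± 0.11, adjusted p = 0.0092), 1 of 7 genes of sterol sensing, and Srebf2 had -0.18 ± 0.13. Among 7 uptake genes Npc2 (0.61 ± 0.12, adjusted p = 0.0051) and Scarb1, a lipoprotein receptor (0.53 ± 0.16, adjusted p = 0.034), were higher and Mylip, a ubiquitin ligase induced by sterol, was lower (-0.55 ± 0.14, adjusted p = 0.018). Of 8 genes of the isoprenoid branches, Pdss2, which makes the ubiquinone tail, was higher (0.63 ± 0.15, adjusted p = 0.012). Among 6 tested genes of sterol turnover, Cyp46a1, the neuronal cholesterol 24-hydroxylase, was lower (-0.36 ± 0.11, adjusted p = 0.044). Of 6 neuronal markers 2 were lower in the same comparison, Tubb3 (-0.58 ± 0.11, adjusted p = 0.0042) and Syp (-0.43 ± 0.09, adjusted p = 0.0066), and none was higher. Neuronal markers summed to 2182 to 2239 CPM in cKO IP and 2094 to 2562 CPM in Ctrl IP. Of 7 astrocyte markers, Gfap was higher (0.76 ± 0.11, adjusted p = 0.0014) and the glutamate transporters Slc1a3 (-0.95 ± 0.18, adjusted p = 0.0049) and Slc1a2 (-0.71 ± 0.16, adjusted p = 0.0093) were lower. None of the oligodendrocyte, precursor, microglial or endothelial markers tested passed. The part of these markers in the values of IP was not tested. Acss2 was the only one of 9 fatty acid synthesis genes to pass (0.56 ± 0.12, adjusted p = 0.0077). With the replicate block more genes of these lists passed, in a fit that called 15% of genes tested higher. Other enzymes then counted 3 higher, with Msmo1 added (0.46 ± 0.09, adjusted p = 0.0036), and 1 lower, Mvk, the mevalonate kinase (-0.41 ± 0.13, adjusted p = 0.040). Uptake counted 3 higher and 2 lower, the latter with Npc1, the membrane partner of Npc2 (-0.62 ± 0.10, adjusted p = 0.0014). Fatty acid synthesis counted 3 higher and 3 lower, among the lower Fasn, the fatty acid synthase (-0.40 ± 0.08, adjusted p = 0.0063). The isoprenoid branches counted 2 higher, sterol turnover 1 higher and 1 lower, and sensing still 1 higher.

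In Input libraries 0 of the 9 passed, against 0.109% of 23828 genes, none did at an unadjusted p under 0.05 or with DESeq2, and none was separate, against 11.9% of genes. The log2 fold changes ran from -0.16 for Lss to 0.28 ± 0.18 for Idi1. Fdps had 53.3, 55.4 and 45.4 CPM in Ctrl and 82.7, 49.5 and 45.8 CPM in cKO, the highest value being that of cKO replicate 1. Without that library 0 of the 9 passed as well. Summed astrocyte markers in Input were higher in each cKO library, 1407 to 1931 CPM, than in any Ctrl library, 930 to 1071 CPM, and their part in these values was not tested. The interaction of fraction and genotype passed for 0 of the 9, and for 0.0582% of 25768 genes, with none of the 9 at an unadjusted p under 0.05 or called by DESeq2, and values from -0.15 to 0.42. The IP and Input comparisons share mice, and P24 and P17 bulk do not.

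Among the P24 bulk mice the 9 genes varied together. Over deviations from group means in log2 CPM, the 36 pairs had a median Pearson r of 0.87, from 0.59 to 0.98, across 8 libraries. Without cKO replicate 1 the median was 0.44, from -0.64 to 0.88, across 7. At P17 it was 0.24, from -0.75 to 0.86. The joint variation at P24 therefore rested largely on that library. The genes most like the mean of the 9 in P24 deviations, of 19369, were Gm48342 (r = 0.996), Gm10252 (0.996), Psme1 (0.989), Itgam (0.986) and S100a4 (0.985). This ranking includes cKO replicate 1 and was not repeated without it, so it may mainly reflect genes that were low in that library. Across the 12 TRAP-Seq libraries, which span both fractions, the closest of 18501 genes were Gm43720 (0.988), Nsdhl (0.987), Gm37201 (0.986), Gm6781 (0.984) and Erg28 (0.982). All these libraries share the scaling and, in TRAP-Seq, the pull-down.

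Some of the 9 genes share exonic bases with a neighbour on GRCm38, and whether strand was used in counting was not given in the sources used here. Gm48342 is antisense to Hmgcs1 (chr13:119690379-119708260) and shares 557 bases with it, so that its likeness to the 9 may hold reads of Hmgcs1. Fdps (chr3:89093588-89101959) shares 1124 bases on the same strand with Gm43738, and its counts are uncertain. Fdft1 (chr14:63145150-63179578) shares 774 bases with Ctsb on the other strand, and Ctsb was itself higher in cKO, by 0.26 in P24 bulk (adjusted p = 0.033) and by 0.58 in IP (adjusted p = 0.042). Idi1 shares 323 bases with Gm48574, Lss 381 with 4930483K19Rik and Cyp51 166 with Akap9, all on the other strand. For Sqle and Dhcr7 no such neighbour was found, and Mvd lies within Gm20388 without shared exonic bases.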

How the data were processed

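Bulk RNA-Seq and TRAP-Seq libraries were analysed from gene counts that the authors deposited, made with STAR on mm10 per the labels; edgeR was the tool of their own tests. The counts are whole reads per gene, not normalized. The age of the bulk tables was taken as the table names and labels give it. Counts were tested with the quasi-likelihood test of edgeR 4.0.16 in R 4.3.3 (TMM scaling, filterByExpr with a minimum count of 10, minimum total of 15 and 70 percent of the smallest group, two-sided, Benjamini-Hochberg over all genes tested, threshold 0.05), within each table. Where nothing else is said, n is 4 mice per bulk group and 3 per TRAP-Seq group. SE is the absolute log2 fold change divided by the square root of F. CPM values are TMM-scaled, and RPKM used the exonic length of GENCODE M21 on GRCm38. DESeq2 1.42.0 and other settings were alternatives. The fits were tested on simulated data.

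The 9 genes and all lists were chosen with earlier results of these data known. All 9 genes were tested in every comparison, although not all 9 are given one by one in each. Named from the other lists were Srebf2, Insig1 and genes past the threshold, at most the 4 largest per list, and not in every comparison. The cell type marker lists were used as sums, and in TRAP-Seq also gene by gene. Same-numbered mice were checked for shared deviations from group means. The correlations were 0.21 to 0.48 at P17 and 0.13 to 0.30 in IP, where every pair passed 0.1, and 0.06 to 0.29 in P24 bulk and -0.09 to 0.19 in Input, where not every pair did. IP and Input of 1 number came from 1 mouse, so the check did not establish that the numbers pair mice. With 3 or 4 mice a group, only differences beyond the spread between mice can be seen. The deleted gene and 3 genes of the other lists are not reported here and were left out of the counts of those lists.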

Additional observations from a re-analysis of the deposited data

Results flagged for a closer look

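Of 44 sets of values (the 9 genes, Srebf2 and Insig1, each in the same bulk groups of 4 mice), 4 held a mouse far from the other 3. For 1 set alone, chance gives about 1 in 20. The sets share mice and the 9 genes varied together at P24, so this rate cannot be used to judge 4 of 44. In 2 of the 4 flagged sets the mouse was P24 cKO replicate 1. It had 18.9 CPM of Idi1, against 31.2 to 32.8 CPM in the other cKO mice. It had 32.8 CPM of Sqle, against 52.6 to 53.8 CPM. The others were single values in Ctrl mice. P24 Ctrl replicate 3 had 28.9 CPM of Idi1, against 23.7 to 24.5 CPM, and P24 Ctrl replicate 2 had 37.7 CPM of Insig1, against 44.0 to 45.2 CPM.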

How the results depend on the processing

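Genes called higher among the 9 moved as follows. In P24 bulk the count was 1 with DESeq2, 1 with no filter and 1 with the replicate block (Cyp51 each time, adjusted p = 0.0055, 0.011 and 0.015), 0 to 6 when 1 library was left out, and 4 with the replicate block together with leaving out cKO replicate 1, a fit chosen after seeing the data. In IP it was 1 with DESeq2, 2 with no filter, 5 with the replicate block and 0 to 2 when 1 library was left out. The interaction of age and genotype gave 0 to 1. No other count of the 9 genes, higher or lower, left its range of 1.5 times, and none was called lower between genotypes in any fit. The replicate block changed no other of these counts by over 1.5 times. A single fit of all libraries was made for TRAP-Seq only, not for bulk. Scaling by library size alone turned Fdps in IP to -0.051. It turned the median of the 9 for the interaction of fraction and genotype to -0.034, and no filter turned it to -0.012. Leaving out 1 library turned the sign of values near 0. In P24 bulk Lss ran from -0.026 to 0.078. In P17 bulk Idi1 ran from -0.067 to 0.0086, Sqle from -0.065 to 0.0015, Lss from -0.041 to 0.022 and the median of the 9 from -0.041 to 0.0086. In IP Mvd ran from -0.010 to 0.34, Fdps from -0.059 to 0.19 and Fdft1 from -0.067 to 0.12. In Input Mvd ran from -0.014 to 0.24, Fdps from -0.11 to 0.36, Fdft1 from -0.20 to 0.049, Sqle from -0.15 to 0.023, Lss from -0.31 to 0.0073, Dhcr7 from -0.060 to 0.27, Insig1 from -0.19 to 0.021 and the median from -0.013 to 0.19. The median of the interaction of fraction and genotype ran from -0.059 to 0.21. The causes were not tested. Counts over all genes moved by over 1.5 times as follows, higher before lower. P24 bulk had 284 and 104, with 213 lower by DESeq2 and 217 with no filter, and 170 to 650 and 45 to 300 leaving out 1 library. P17 had 14 and 6, with 29 and 12 by DESeq2, 39 and 16 with no filter, 84 and 25 with the replicate block, and 6 to 11 and 5 to 8 leaving out 1 library. IP had 2772 and 2010, with 3529 lower by library size alone, 3160 lower with the block, 920 and 764 in 1 fit of all TRAP-Seq libraries, and 1827 to 2849 and 806 to 2100 leaving out 1. Input had 22 and 4, with 120 and 7 by DESeq2, 94 and 18 with no filter, 14 and 1 with 10 counts in every library, 6 and 2 with the block, 121 higher in 1 fit, and 1 to 103 and 2 to 11 leaving out 1. The interaction with fraction had 10 and 5, with 5 higher by RLE or library size alone, 99 and 185 by DESeq2, 79 and 110 with no filter, 4 and 2 with the block, and 1 to 246 and 1 to 186 leaving out 1. The interaction with age had 8 and 3, with 43 and 11 by DESeq2, 52 and 10 with no filter, 42 and 13 with the block, and 2 to 113 and 2 to 36 leaving out 1. In P24 bulk and Input not every same-numbered pair passed 0.1 in the pairing check.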
